A study of Homo sapiens with 9 samples.

Results

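The genes described here are 10 heat shock protein chaperones: HSPA8, HSPA1A, HSPA1B, HSP90AA1, HSP90AB1, HSPH1, DNAJB1, HSPD1, HSPE1 and HSPB1. They were taken by symbol from the deposited expression table, which holds 27421 genes, and each symbol matched 1 row. Huh7, a human hepatocellular carcinoma cell line, was sequenced in 3 groups of 3 libraries to ask whether the splicing protein ZMAT2 affects liver cancer cells. The labels name no drug, dose or time point for any library. By the labels the groups share the cell line and differ in the hairpin or control that their titles name. The control group is named only as control, and the labels do not say whether it carried a hairpin or a vector. The other groups, shZMAT2-1 and shZMAT2-2, are named as short hairpins against ZMAT2, for its knockdown, and are called arms below. The hairpin sequences, the vector, and whether clones or pools were used are not given in the sources used here. Whether the replicates are separate cultures is also unstated, and every p-value measures only the spread between these libraries, which may be technical.

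Heat shock proteins bind unfolded or partly folded proteins and help them fold, reach their complexes or be degraded. HSP70 proteins cycle on and off their clients with J-domain partners and nucleotide exchange factors, HSP90 proteins act later on signalling kinases and receptors, and HSP60 with HSP10 forms a folding chamber in mitochondria. Many of these genes carry heat shock elements in their promoters, inverted repeats of GAA that the transcription factor HSF1 binds, and hepatocellular carcinoma cells commonly express them at high levels.

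ZMAT2 was lower in every library of both arms than in any control library. Its level was 36.5 ± 3.32 FPKM (SD, n = 3) in the control, 13.7 ± 1.30 in shZMAT2-1 and 21.1 ± 0.92 in shZMAT2-2. FPKM counts fragments per length of transcript and per depth of the library, so levels of different genes can be set side by side. By limma this was a log2 fold change of -1.35 in shZMAT2-1, with an adjusted p of 0.028, and of -0.76 in shZMAT2-2, with an adjusted p of 0.11. In shZMAT2-1 the call remained in 1 of 9 limma fits that each left out 1 library, the fit without control replicate 2, with log2 fold changes of -1.42 to -1.30 over the 9. It was also lost with TPM (-1.17, limma adjusted p = 0.88) and when the shZMAT2-2 libraries were kept out of the fit (limma adjusted p = 0.29). In shZMAT2-2 ZMAT2 was called in 1 of those 9 fits, again the one without control replicate 2 (-0.84, limma adjusted p = 0.016).

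The libraries held 18430000 to 23740000 fragments. Fragments from 13 mitochondrially encoded genes made up 7.70% to 16.6% of 7 libraries, 27.0% of shZMAT2-2 replicate 1 and 43.2% of control replicate 2, which stands apart from the other control libraries at 7.86% and 8.28%. Estimates against the control are therefore also given without control replicate 2. This does not even out the shares. The control libraries left are below every shZMAT2-2 library (14.5% to 27.0%) and shZMAT2-1 replicate 2 (16.4%). Without control replicate 2, shZMAT2-2 and mitochondrial share cannot be told apart. That library was also the lowest control for all 10 chaperone genes, so leaving it out lowers every estimate against the control. All 11 hepatocyte and liver cancer markers reached 1 FPKM in at least 3 libraries, with ALB at 1333 to 2571 FPKM. Of the markers of other cell types, 2 of 6 fibroblast, 2 of 6 leukocyte and 1 of 4 endothelial genes did. Their summed levels were 1.54 to 3.66, 2.98 to 4.18 and 1.78 to 2.81 FPKM for fibroblast markers in the control, shZMAT2-1 and shZMAT2-2. They were 56.9 to 136, 66.3 to 77.9 and 47.6 to 65.7 FPKM for leukocyte markers, nearly all of it LYZ, while the defining leukocyte gene PTPRC stayed at or under 0.0236 FPKM. For endothelial markers they were 1.04 to 1.70, 1.02 to 1.14 and 0.695 to 0.745 FPKM. In bulk RNA, fewer cells of a type and less RNA per cell cannot be told apart.

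Promoters are shown for 6 of the chaperone genes, which differ widely in level. The windows were chosen to hold a short repeat of a heat shock element before the start, so its presence in all 6 is no finding. Each line holds the 250 bases before a transcription start given by RefSeq on GRCh38.p14, read 5′ to 3′ on the gene's strand. Capitals mark every match to GAANNTTC or TTCNNGAA, the short repeats of a heat shock element, each of which reads the same on both strands. The windows lie at chr11:123062137-123062386 on the minus strand for HSPA8, chr6:31815293-31815542 on the plus strand for HSPA1A and chr6:31827488-31827737 on the plus strand for HSPA1B. They lie at chr14:102087045-102087294 for HSP90AA1, chr19:14518398-14518647 for DNAJB1 and chr2:197499841-197500090 for HSPD1, all on the minus strand.
HSPA8: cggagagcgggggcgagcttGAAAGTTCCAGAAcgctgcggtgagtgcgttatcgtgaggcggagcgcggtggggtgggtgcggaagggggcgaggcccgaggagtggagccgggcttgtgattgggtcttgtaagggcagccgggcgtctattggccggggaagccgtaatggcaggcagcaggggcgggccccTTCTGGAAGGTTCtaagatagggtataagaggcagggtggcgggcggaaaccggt
HSPA1A: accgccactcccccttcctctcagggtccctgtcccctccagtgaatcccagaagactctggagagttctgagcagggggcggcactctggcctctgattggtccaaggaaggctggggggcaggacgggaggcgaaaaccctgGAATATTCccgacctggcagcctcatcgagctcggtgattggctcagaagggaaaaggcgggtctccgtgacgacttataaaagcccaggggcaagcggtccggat
HSPA1B: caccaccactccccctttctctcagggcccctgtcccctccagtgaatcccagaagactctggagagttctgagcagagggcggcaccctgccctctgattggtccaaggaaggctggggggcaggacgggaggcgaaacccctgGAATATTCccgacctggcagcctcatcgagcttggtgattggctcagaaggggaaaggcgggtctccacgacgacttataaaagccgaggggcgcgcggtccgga
HSP90AA1: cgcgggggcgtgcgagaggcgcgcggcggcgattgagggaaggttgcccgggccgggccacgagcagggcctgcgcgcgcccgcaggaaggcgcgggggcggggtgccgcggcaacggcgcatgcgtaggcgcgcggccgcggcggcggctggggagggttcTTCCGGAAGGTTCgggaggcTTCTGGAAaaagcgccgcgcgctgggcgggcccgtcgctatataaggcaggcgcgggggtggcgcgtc
DNAJB1: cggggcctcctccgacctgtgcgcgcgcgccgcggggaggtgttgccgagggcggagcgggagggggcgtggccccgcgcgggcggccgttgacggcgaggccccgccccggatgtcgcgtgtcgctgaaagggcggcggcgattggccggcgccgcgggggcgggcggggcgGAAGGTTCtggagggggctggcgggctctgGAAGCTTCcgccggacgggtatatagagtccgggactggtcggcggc
HSPD1: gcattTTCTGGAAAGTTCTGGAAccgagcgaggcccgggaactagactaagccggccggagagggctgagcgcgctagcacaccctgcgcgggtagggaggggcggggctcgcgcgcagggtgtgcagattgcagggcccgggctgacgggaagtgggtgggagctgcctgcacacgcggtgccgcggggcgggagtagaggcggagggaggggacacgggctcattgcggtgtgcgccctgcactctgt

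All 10 symbols matched the RefSeq promoter table, with 16 windows of 300 bases, each running from 250 bases before to 50 bases after a start. At least 1 match to GAANNTTC or TTCNNGAA was present in 9 of these 16 windows and for 8 of the 10 genes, against 13.5% of the 35116 windows of all genes. HSPH1 and HSPE1 had none in their windows. Other windows of HSP90AA1 (chr14:102139700-102139999), DNAJB1 (chr19:14529222-14529521) and HSP90AB1 (chr6:44245944-44246243 and chr6:44246851-44247150) had none either. A longer form was GAANNTTC followed by NNGAA or TTCNNGAA followed by NNTTC, searched on both strands and overlapping the short form. It was present in 4 of the 16 windows and for HSPA8, HSP90AA1, HSP90AB1 and HSPD1, against 0.49% of all windows. In HSPA8 the matches began 230 and 55 bases before the start, in HSP90AA1 88 and 68, in DNAJB1 77 and 47, and in HSPA1A 106. TATAAA was found in 2 of the 16 windows, those of HSPA1A and HSPA1B, against 11.5% of all windows. CCAAT, searched on both strands, was found in 7 of the 16 windows and for 5 of the 10 genes, against 34.6% of all windows. HSPD1 has a second window, at chr2:197500225-197500524, which holds neither repeat. From that start and the start of HSPE1, 105 bases apart, the pair is transcribed in opposite directions, and those windows share 204 bases. The HSPD1 window printed above shares no base with that of HSPE1. The windows of HSPA1A and HSPA1B were identical at 277 of 300 aligned bases. A match describes these letters and is not evidence of binding.

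In the control group the 10 genes spanned a wide range of levels. HSP90AB1 was highest at 666 ± 183 FPKM (SD, n = 3) and ranked 27 among 16964 protein-coding genes by control mean. It was followed by HSPA8 at 451 ± 60.9, HSP90AA1 at 391 ± 64.4, HSPD1 at 126 ± 35.6 and HSPB1 at 99.95 ± 26.4 FPKM. HSPH1 at 26.6 ± 4.92, HSPE1 at 26.2 ± 3.38, DNAJB1 at 22.4 ± 10.03, HSPA1A at 17.9 ± 2.50 and HSPA1B at 9.43 ± 4.12 FPKM formed a lower group. Neighbours in this order lay within the sum of their SDs of each other, except HSP90AA1 and HSPD1, HSPB1 and HSPH1, and HSPA1A and HSPA1B, whose means lay further apart than that. HSP90AB1, HSPA8 and HSP90AA1 together made up 78.4% to 83.4% of the summed level of the 10 genes in each library.

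**Figure D1:**
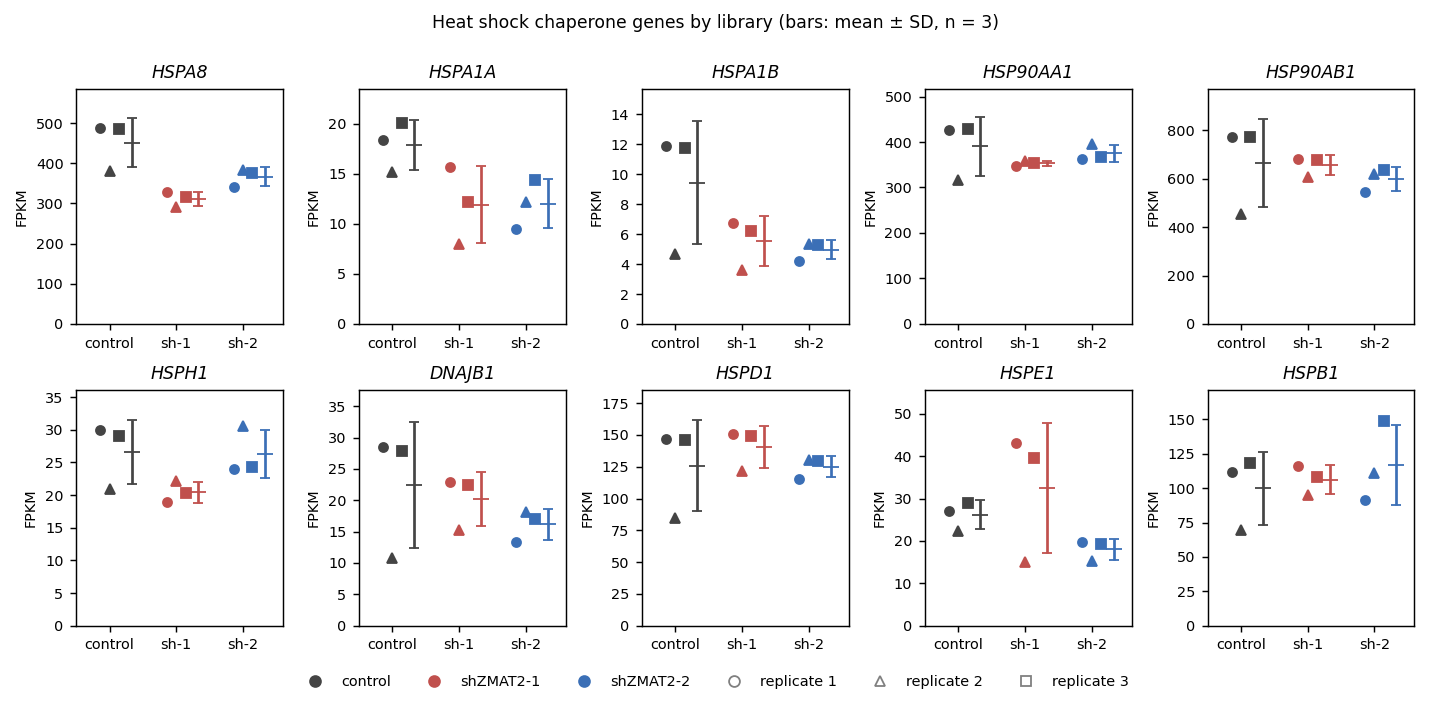
Levels of the 10 chaperone genes in FPKM (y axis, linear, from 0) in the 3 libraries of each group (x axis; sh-1 is shZMAT2-1 and sh-2 is shZMAT2-2), with marker shape for the replicate and bars for the mean ± SD. Control replicate 2, the triangle in the control column, is the lowest control library for every gene, and HSPA8 in shZMAT2-1 lies wholly below the control.

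None of the 10 genes passed the test in any comparison. limma was fitted to log2(FPKM + 1) across 11245 genes, and a gene was called at an adjusted p under 0.05. With both arms averaged and set against the control, 0 of 10 chaperone genes were called, against 0.542% of all tested genes, and 2 had an unadjusted p under 0.05 (HSPA1A and HSPA1B), as did 6.93% of all tested genes. In shZMAT2-1 it was 0 of 10 against 0.08% of all tested genes, with HSPA8 and HSPA1A at an unadjusted p under 0.05, as were 5.76% of all tested genes. A fit of those 2 groups alone with the replicate number as a block, added after the data were seen, also called 0 of 10, against 2.21% of all tested genes. In shZMAT2-2 it was 0 of 10 against 0.587%, and between the arms 0 of 10 against 0.0%, with 0 chaperone genes at an unadjusted p under 0.05 in either limma comparison, beside 7.0% and 4.13% of all tested genes. The comparisons of each arm with the control share the 3 control libraries. Without control replicate 2, HSPA1B was the only chaperone gene called, in the mean of both arms, where 1.33% of all tested genes were called, and in shZMAT2-2, where 2.4% were. In shZMAT2-1 that fit called 0 of 10 against 0.293%, with 5 of the 10 at an unadjusted limma p under 0.05, as were 8.94% of all tested genes. In the mean of both arms 5 of the 10 were under it, as were 16.0% of all tested genes. In shZMAT2-2 it was 4 of the 10, against 29.5%.

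No chaperone gene had all 6 arm libraries below all 3 control libraries, as 0.685% of tested genes did. Against control replicates 1 and 3 alone, 6 of the 10 genes had all 6 arm libraries lower (HSPA8, HSPA1A, HSPA1B, HSP90AA1, HSP90AB1 and DNAJB1), against 13.9% of tested genes. For all 10 genes these were the higher control libraries.

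Estimates for 8 of the 10 genes were negative in the mean of both arms, with a median log2 fold change of -0.17, while 28.2% of all tested genes were negative and their median was 0.10. In shZMAT2-1, 6 of 10 were negative with a median of -0.09, against 27.1% and 0.16 for all tested genes. In shZMAT2-2, 8 of 10 were negative with a median of -0.20, against 41.6% and 0.05. Scaling and single control libraries moved these figures. With median-of-ratios scaling, 9 of the 10 genes were negative in the mean of both arms with a median of -0.30, against 51.6% and -0.01 for all tested genes, and with TPM 6 of 10 were, with a median of -0.07, against 16.6% and 0.20. Without control replicate 2, 10 of 10 were negative with a median of -0.32, against 67.5% and -0.11 for all tested genes. Without control replicate 1 it was 6 of 10 with a median of -0.055, against 17.3% and 0.20, and without control replicate 3 6 of 10 with -0.053, against 17.8% and 0.20.

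In shZMAT2-1 alone the count ran from 4 to 10 of the 10 genes over the alternatives. Nuclear scaling here means dividing by the summed FPKM of all genes other than the 13 mitochondrially encoded ones. The count was 9 of 10 with median-of-ratios scaling (median -0.27, against 48.3% and 0.0095 for all tested genes) and 10 of 10 with quantile normalization (-0.39, against 50.3%) and with nuclear scaling (-0.33, against 54.9%). It was 4 of 10 with TPM, where the median was 0.13, against 11.3% and 0.37. Without control replicate 1 or 3 it was 5 of 10, with medians of 0.042 and 0.045, against 20.7% and 21.0%, and without control replicate 2 it was 9 of 10 with -0.38, against 61.7%. In shZMAT2-2 it was 5 of 10 without control replicate 1 (-0.051) or 3 (-0.059), against 22.8% and 23.5%, and 10 of 10 without control replicate 2 (-0.39), against 66.5%.

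**Figure D2:**
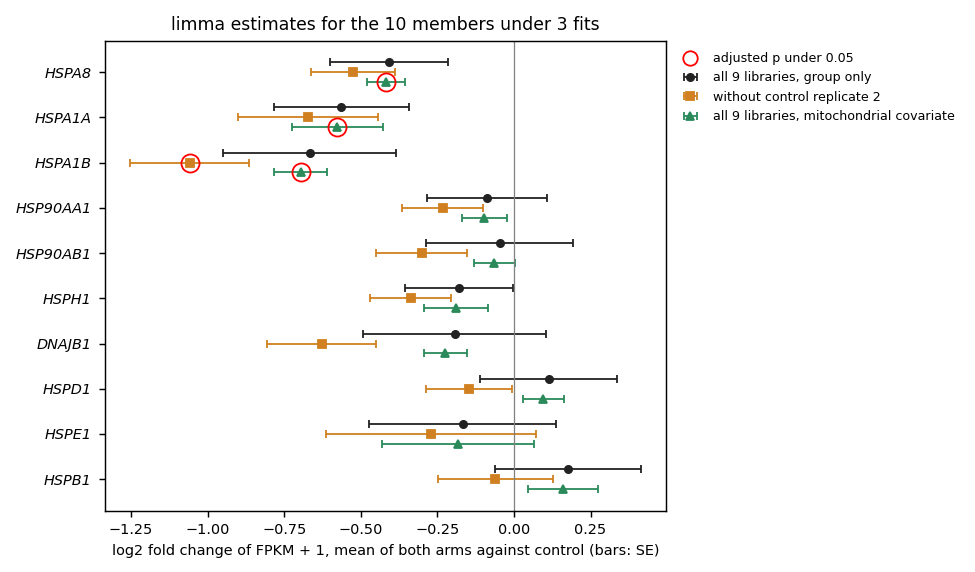
Log2 fold changes of FPKM + 1 from control to the mean of both arms (x axis) by chaperone gene (y axis), with SE bars. Circles are all 9 libraries, squares leave out control replicate 2, and triangles are all 9 libraries with a mitochondrial covariate. That covariate is the combined FPKM of the 13 mitochondrially encoded genes in log2 units, not their percent share of fragments. Red rings mark a limma adjusted p under 0.05. The HSP70 genes HSPA8, HSPA1A and HSPA1B lie below 0 in all 3 fits, with none called in the fit to all 9 libraries without the covariate, HSPA1B called in the other fits and HSPA8 and HSPA1A with the covariate.

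HSPA8 encodes HSC70, the constitutive cytosolic HSP70, which also uncoats clathrin vesicles (ENSG00000109971, deposited position chr11:123057489-123063230). Its level was 488, 381 and 485 FPKM in control replicates 1 to 3, 328, 292 and 315 in shZMAT2-1, and 341, 385 and 375 in shZMAT2-2. Every shZMAT2-1 library was below every control library, whereas shZMAT2-2 replicate 2 was slightly above control replicate 2. Non-overlap of this kind, lower in shZMAT2-1, held for 1.83% of all tested genes. The mean level was 69.0% of the control mean in shZMAT2-1, a log2 fold change of -0.53 (SE 0.22, limma adjusted p = 0.81). In shZMAT2-2 it was 81.3% of the control mean, a log2 fold change of -0.29 (SE 0.22, limma adjusted p = 1.0). The difference between the arms was 0.24 (SE 0.22, limma adjusted p = 0.68). In the mean of both arms HSPA8 was at -0.41 (SE 0.19, limma adjusted p = 0.78), and at -0.53 (SE 0.14, limma adjusted p = 0.12) without control replicate 2.

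HSPA1A and HSPA1B encode the stress-inducible HSP70 and are neighbouring copies on chromosome 6 (ENSG00000204389, chr6:31815543-31817946; ENSG00000204388, chr6:31827738-31830254). Their coding sequences in GENCODE 29 are both 1923 bases without the stop codon and identical at 1919 of them, with the longest identical run at 1709 bases. How fragments that match both were assigned was not given in the sources used here, so the split between the 2 copies is uncertain. The same holds for fragments shared with the processed pseudogenes of HSPA8, HSP90AA1, HSPD1, HSPE1 and HSPB1, whose levels carry that doubt too. HSPA1A was at 18.4, 15.2 and 20.1 FPKM in the control, 15.7, 8.01 and 12.2 in shZMAT2-1, and 9.49, 12.2 and 14.4 in shZMAT2-2. All shZMAT2-2 libraries were below all control libraries, as for 1.52% of tested genes, while shZMAT2-1 replicate 1 reached past control replicate 2. It had a log2 fold change of -0.58 (SE 0.25, limma adjusted p = 0.81) in shZMAT2-1 and of -0.55 (SE 0.25, limma adjusted p = 0.75) in shZMAT2-2.

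HSPA1B was at 11.9, 4.67 and 11.8 FPKM in the control, 6.77, 3.61 and 6.21 in shZMAT2-1, and 4.22, 5.37 and 5.29 in shZMAT2-2. Control replicate 2 lay among the arms, and the other control libraries were above all 6 arm libraries. The value of control replicate 2 rested on 269 fragments with a 95% Poisson interval of 4.13 to 5.27 FPKM, and that of control replicate 1 on 609 with 10.9 to 12.8 FPKM. These intervals cover counting error only. The log2 fold change in the mean of both arms was -0.67 (SE 0.28, limma adjusted p = 0.67). Without control replicate 2 it was -1.06 (SE 0.19, limma adjusted p = 0.039), with 1.33% of all tested genes called. HSPA1A moved less between these fits, from -0.56 (SE 0.22, limma adjusted p = 0.58) to -0.67 (SE 0.23, limma adjusted p = 0.21). The ratio of HSPA1A to HSPA1B was 1.55, 3.25 and 1.71 in the control libraries and 1.96 to 2.72 in the arms, so the ratio in control replicate 2 was the highest of the 9.

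HSP90AA1 encodes the stress-responsive and HSP90AB1 the constitutive cytosolic HSP90 (ENSG00000080824, chr14:102080742-102139699; ENSG00000096384, chr6:44246166-44253888). HSP90AA1 was at 426, 316 and 429.7 FPKM in the control, 348, 359 and 353 in shZMAT2-1, and 363, 396 and 367 in shZMAT2-2. HSP90AB1 was at 771, 454 and 772 FPKM in the control, 683, 607 and 679 in shZMAT2-1, and 545, 618 and 635 in shZMAT2-2. For both genes all 6 arm libraries fell between control replicate 2 and the other control libraries. The log2 fold changes in the mean of both arms were -0.09 (SE 0.20) and -0.05 (SE 0.24), both with a limma adjusted p of 1.0. Without control replicate 2 they were -0.23 (SE 0.13, limma adjusted p = 0.40) and -0.30 (SE 0.15, limma adjusted p = 0.35). With TPM the estimates turned positive, at 0.021 for HSP90AA1 and 0.063 for HSP90AB1.

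The HSP70 and HSP90 genes could be set against each other within a library, where any factor common to the library cancels. HSPA8 was above HSP90AA1 in 3 of 3 control libraries and in 1 of 6 arm libraries. The ratio of HSPA8 to HSP90AA1 was 1.15, 1.20 and 1.13 in the control, 0.941, 0.813 and 0.892 in shZMAT2-1, and 0.940, 0.972 and 1.02 in shZMAT2-2. All control libraries, replicate 2 included, were above all arm libraries. This pair was chosen after the values were seen, so the ratio is a description without a test. The share of other gene pairs that separate the groups in this way was not computed. HSP90AB1 to HSP90AA1 was 1.44 to 1.81 in the control, 1.69 to 1.96 in shZMAT2-1 and 1.5 to 1.73 in shZMAT2-2, with all groups overlapping.

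**Figure D3:**
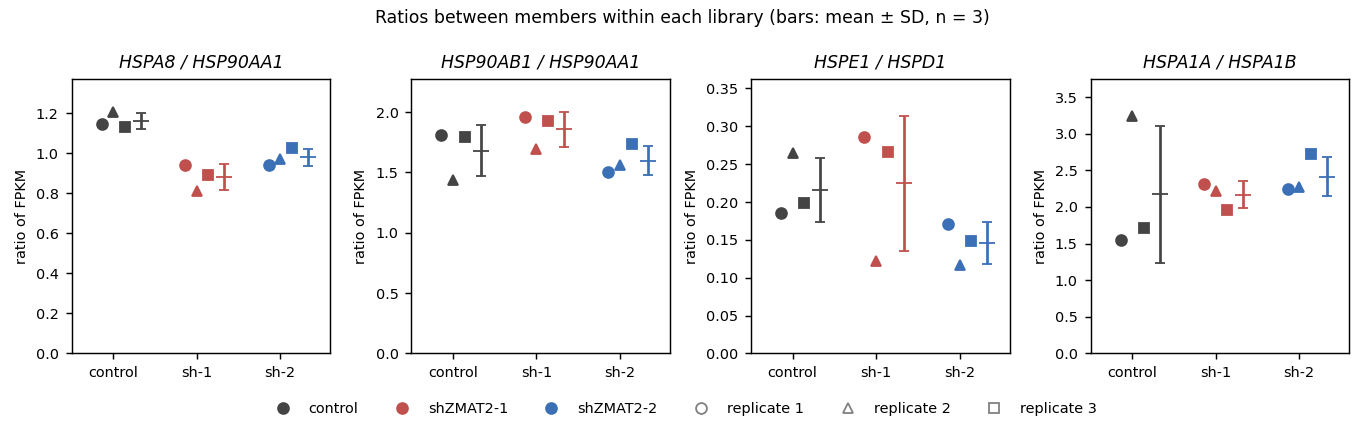
Ratios of FPKM between pairs of chaperone genes within each library (y axis, linear, from 0), by group (x axis), with marker shape for the replicate and bars for the mean ± SD. HSPA8 to HSP90AA1, a pair chosen after the values were seen, separates the control (1.16 ± 0.04) from shZMAT2-1 (0.88 ± 0.06) and shZMAT2-2 (0.98 ± 0.04). The share of other gene pairs that separate the groups was not computed. HSPE1 to HSPD1 is lower in every shZMAT2-2 library than in the control and spreads widely within shZMAT2-1, and the groups overlap in the remaining ratios.

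HSPH1 encodes HSP105, an HSP110-type nucleotide exchange factor for HSP70 (ENSG00000120694, chr13:31134973-31162388). It was at 29.9, 20.97 and 28.98 FPKM in the control, 18.9, 22.1 and 20.3 in shZMAT2-1, and 23.99, 30.5 and 24.4 in shZMAT2-2. shZMAT2-1 was below control replicates 1 and 3 throughout, and shZMAT2-2 replicate 2 was the highest of the 9 libraries. HSPH1 had a log2 fold change of -0.35 (SE 0.20, limma adjusted p = 0.81) in shZMAT2-1 and of -0.01 (SE 0.20, limma adjusted p = 1.0) in shZMAT2-2. The difference between the arms was 0.34 (SE 0.20, limma adjusted p = 0.66). The estimate without control replicate 2 was -0.51 (SE 0.15, limma adjusted p = 0.28) in shZMAT2-1 and -0.17 (SE 0.15, limma adjusted p = 0.46) in shZMAT2-2.

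DNAJB1 encodes HSP40, the J-domain partner that delivers clients to HSP70 (ENSG00000132002, chr19:14514769-14560391). It was at 28.5, 10.8 and 27.9 FPKM in the control, 22.9, 15.3 and 22.5 in shZMAT2-1, and 13.4, 18.1 and 17.03 in shZMAT2-2. Relative to their level, its control replicates differed most of the 10 genes, with replicate 2 at 38.4% of the mean of the others. The log2 fold change in the mean of both arms was -0.19 (SE 0.30, limma adjusted p = 1.0), and without control replicate 2 it was -0.63 (SE 0.18, limma adjusted p = 0.14). DNAJB1 was lowest in the library with a mitochondrial share of 43.2% and next lowest in that with 27.0%. The 4 libraries with shares under 10% held its 4 highest values.

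**Figure D4:**
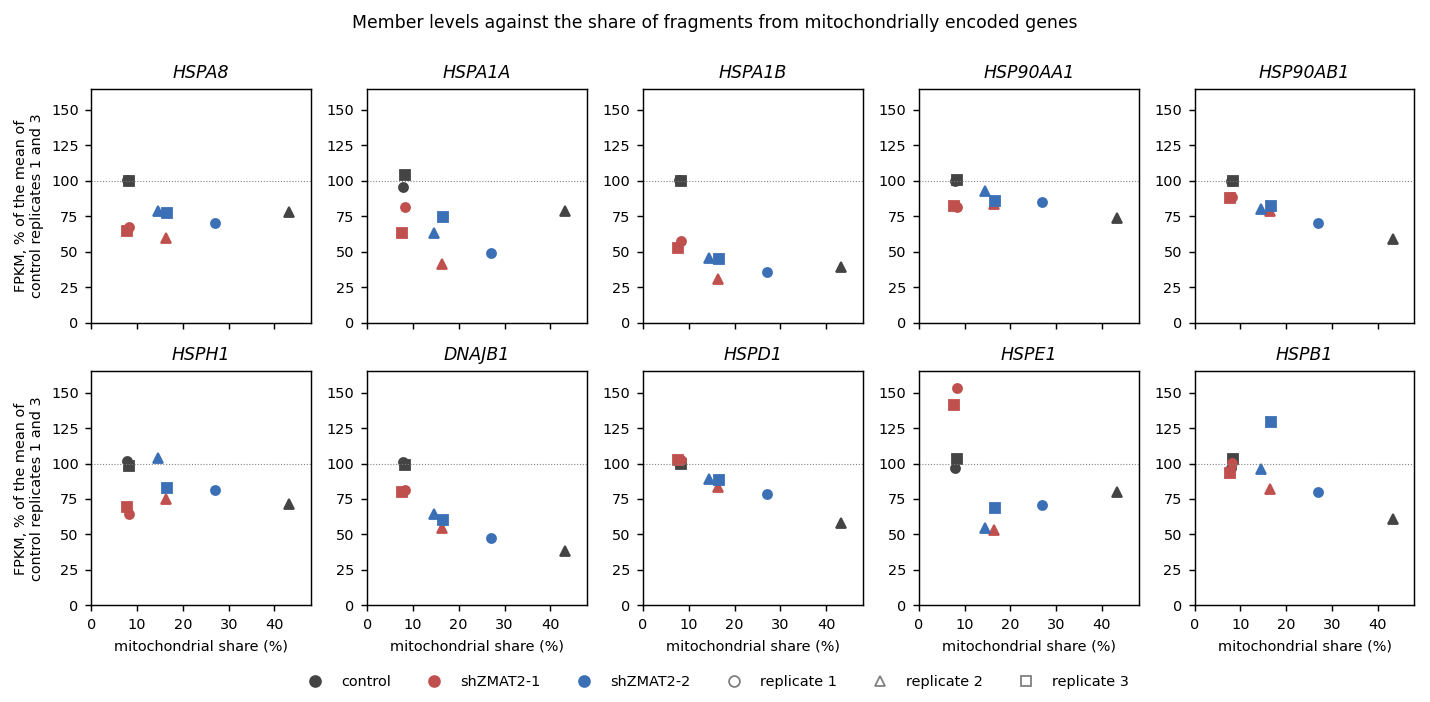
Level of each chaperone gene as a percentage of the mean of control replicates 1 and 3 (y axis, linear, from 0) against the share of fragments from mitochondrially encoded genes in percent (x axis), 1 point per library, with colour for the group and shape for the replicate. DNAJB1, HSPD1, HSP90AB1, HSP90AA1 and HSPB1 have their lowest level at the highest share. HSPA8 in shZMAT2-1 is at 59.9% to 67.3% at shares of 7.70% to 16.4%.

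HSPD1 encodes HSP60 and HSPE1 its lid HSP10, which together form the mitochondrial folding chamber (ENSG00000144381, chr2:197486584-197516737; ENSG00000115541, chr2:197500140-197503449). HSPD1 was at 146, 84.8 and 146 FPKM in the control, 150.5, 122 and 149.6 in shZMAT2-1, and 115, 129.99 and 129.5 in shZMAT2-2. The log2 fold change in the mean of both arms was 0.11 (SE 0.22, limma adjusted p = 1.0), and the arms lay within the control range except shZMAT2-1 replicates 1 and 3, just above it. Without control replicate 2 the estimate was -0.15 (SE 0.14, limma adjusted p = 0.58). HSPE1 was at 27.2, 22.5 and 29 FPKM in the control, 43.1, 14.9 and 39.7 in shZMAT2-1, and 19.8, 15.2 and 19.2 in shZMAT2-2. It thus lay above every control library in shZMAT2-1 replicates 1 and 3 and below every control library in shZMAT2-1 replicate 2 and in all of shZMAT2-2, as 1.52% of tested genes did in the latter arm. By limma HSPE1 had a log2 fold change of 0.18 (SE 0.35, adjusted p = 0.86) in shZMAT2-1 and of -0.51 (SE 0.35, adjusted p = 0.99) in shZMAT2-2. The estimate in shZMAT2-1 was 0.65 without replicate 2 of that arm and -0.09 without its replicate 1. The estimates without control replicate 2 were 0.074 (SE 0.38) in shZMAT2-1 and -0.62 (SE 0.38, limma adjusted p = 0.29) in shZMAT2-2. The difference between the arms was -0.69 (SE 0.35, limma adjusted p = 0.66).

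Despite their adjacent starts, HSPE1 and HSPD1 did not keep a fixed ratio. HSPE1 to HSPD1 was 0.185, 0.265 and 0.198 in the control, 0.287, 0.123 and 0.265 in shZMAT2-1, and 0.172, 0.117 and 0.148 in shZMAT2-2. The ratio was lower in all shZMAT2-2 libraries than in any control library, a separation whose share among other gene pairs was not computed. It was also low in shZMAT2-1 replicate 2, and was higher in the other libraries of that arm than in control replicates 1 and 3.

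HSPB1 encodes HSP27, a small heat shock protein that holds unfolded proteins without ATP (ENSG00000106211, chr7:76302673-76304295). It was at 112, 69.7 and 119 FPKM in the control, 116, 94.7 and 108 in shZMAT2-1, and 91.7, 111 and 149 in shZMAT2-2. The groups overlapped, and shZMAT2-2 replicate 3 was the highest library. The log2 fold change in the mean of both arms was 0.18 (SE 0.24, limma adjusted p = 1.0), and without control replicate 2 it was -0.06 (SE 0.19, limma adjusted p = 0.88).

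The 4 libraries with a mitochondrial share under 10% are control replicates 1 and 3 and shZMAT2-1 replicates 1 and 3, and they were compared on their own after the data were seen. In that fit 8 of the 10 chaperone genes were called, but so were 37.5% of all tested genes. HSPA8 fell by 0.60 on the log2 scale (SE 0.05, limma adjusted p = 0.000259) and HSPA1B by a log2 fold change of -0.78 (SE 0.07, limma adjusted p = 0.00028). HSPA1A, HSPH1, DNAJB1, HSP90AA1 and HSP90AB1 also fell, with log2 fold changes of -0.56 to -0.18. HSPE1 rose, with a log2 fold change of 0.54 (SE 0.06, limma adjusted p = 0.000775), and HSPD1 (0.035) and HSPB1 (-0.042) did not pass the test. Another fit used all 9 libraries and a mitochondrial covariate. For each library the FPKM of the 13 mitochondrially encoded genes were added up and put on a log2 scale. The percent share itself was not the covariate. In the mean of both arms, HSPA8 then fell by 0.42 (SE 0.06, limma adjusted p = 0.0031). HSPA1A fell by 0.58 (SE 0.15, limma adjusted p = 0.037) and HSPA1B by 0.70 (SE 0.09, limma adjusted p = 0.0012). In that fit 9.75% of all tested genes were called. In shZMAT2-1 it called HSPA8 and HSPA1B, against 3.73% of tested genes, and in shZMAT2-2 HSPA1B, against 9.84%.

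Other ways of treating the uneven libraries gave other counts. With nuclear scaling, the 9 libraries gave 1 called chaperone gene in the mean of both arms, HSPA1B, against 1.6% of tested genes. Leaving out control replicate 2 together with shZMAT2-1 replicate 2 gave DNAJB1 and HSPA1B in the mean, against 4.1%, and HSPA1B in shZMAT2-1, against 1.24%. In shZMAT2-2 it gave HSPE1, DNAJB1, HSPA1B and HSPA1A, all lower, against 30.2%. Between the arms it gave HSPE1 and DNAJB1, lower in shZMAT2-2 than in shZMAT2-1, and HSPH1, higher, against 42.3%. Every control and shZMAT2-1 library left in that fit had a mitochondrial share of 7.70% to 8.28%, and every shZMAT2-2 library 14.5% to 27.0%. In its comparisons of shZMAT2-2 with the control and with shZMAT2-1, arm and mitochondrial share therefore cannot be told apart. In the mean of both arms, HSPA1B was thus called in the 4 fits that dropped control replicate 2, alone or with the other library, used the covariate or used nuclear scaling.

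Shared patterns across libraries were described for HSPA8, DNAJB1 and HSPD1 by the Pearson correlation of log2(FPKM + 1) over the 9 libraries, which share their groups and scaling. The genes most like HSPA8 were RDH11, a retinol dehydrogenase (r = 0.96), GDF11, a growth factor of the TGF-beta family (0.94), UGT2B4, a liver glucuronidation enzyme (0.93), the histone gene H4C8 (0.92) and ZMAT2 (0.92), and 13 genes in all had r over 0.9. ZMAT2 and HSPA8 both had their highest mean in the control and their lowest in shZMAT2-1. A correlation across the groups restates that order and does not show a link between the genes. DNAJB1 was most like SLC35B3, NARS2, COA5, ZNF395 and PSMC6, at 0.989 to 0.995, and 1775 genes had r over 0.9. HSPD1 was most like IRF2BP2, NAA20, PGRMC1, RPA1 and SEPHS2, at 0.994 to 0.996, with 3380 genes over 0.9. Fewer genes thus had r over 0.9 with HSPA8 than with DNAJB1 or HSPD1. The usual count for a tested gene was not computed, so these counts are not shown to be particular to these genes. In control replicate 2, with the mitochondrial share of 43.2%, DNAJB1 was at 38.4%, HSPD1 at 57.9% and HSPA8 at 78.3% of the mean of control replicates 1 and 3. Whether that library accounts for the counts was not tested. The deposited table assigns HSPA8, HSPA1A and HSPA1B to the KEGG spliceosome pathway, which lists 132 of its genes, and 7 of the 10 chaperone genes to protein processing in the endoplasmic reticulum.

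No listed gene of the wider chaperone network passed the threshold of limma in any comparison with all 9 libraries, and only HSPB8 had an unadjusted p under 0.05 in the mean of both arms. Of the regulators, HSF1, the main heat shock transcription factor, was at 15.7 ± 2.55 FPKM in the control, 19.4 ± 2.05 in shZMAT2-1 and 19.3 ± 2.96 in shZMAT2-2. Its log2 fold change in the mean of both arms was 0.30 (SE 0.17, limma adjusted p = 0.93), and 3 of the 4 tested regulators had positive estimates. HSF2 (0.12) and HSBP1 (0.11), which binds HSF1, were the next by p.

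Among co-chaperones, 13 of 17 J-domain genes had positive estimates (median 0.07), as did 6 of 9 nucleotide exchange factors and HSP70 regulators (0.13) and 8 of 14 HSP90 co-chaperones (0.10), close to the median of 0.10 over all tested genes. DNAJA1, a partner of HSC70, was at 154 ± 33.8 FPKM in the control, 127 ± 7.36 in shZMAT2-1 and 131 ± 9.85 in shZMAT2-2. BAG3, which links HSP70 to autophagy, was at 19.8 ± 1.52, 19.7 ± 2.73 and 25.3 ± 2.23 FPKM in the same order. CHORDC1, an HSP90 co-chaperone, was at 6.61 ± 0.823, 4.51 ± 0.941 and 5.68 ± 0.928 FPKM, with a log2 fold change of -0.33 (SE 0.16, limma adjusted p = 0.81). Estimates were small for DNAJC8 (0.20), DNAJC9 (0.25), BAG2 (-0.16), STUB1 (0.24), PPID (-0.17) and PPP5C (0.25). The HSP70 relatives HSPA4 (0.11), HSPA13 (-0.13) and HSPA14 (0.22) stood among 6 tested, 3 with positive estimates and 3 with negative ones (median 0.04).

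Of all tested genes, 8073 had positive and 3172 negative estimates in the mean of both arms, and estimates for most other folding machines were positive too. All 10 nuclear-encoded mitochondrial chaperones and proteases had positive estimates (median 0.19), TRAP1, the mitochondrial HSP90, at 0.33, HSCB at 0.37 and YME1L1 at 0.21. By arm, 9 of 10 were positive in shZMAT2-1 (median 0.28) and 6 of 10 in shZMAT2-2 (0.02). HSCB was at 0.86 in shZMAT2-1 (SE 0.37, limma adjusted p = 0.81) and at -0.12 in shZMAT2-2 (SE 0.37, limma adjusted p = 1.0), and the difference between the arms was -0.98 (SE 0.37, limma adjusted p = 0.66). All 8 subunits of TRiC, the cytosolic chaperonin, had positive estimates (median 0.13), with CCT2 at 0.15, CCT5 at 0.23 and CCT8 at 0.12. The TRiC median was 0.34 in shZMAT2-1 and -0.07 in shZMAT2-2, beside 0.16 and 0.05 over all tested genes. Of 6 prefoldin subunits 5 had positive estimates (median 0.08; PFDN1 0.37, PFDN2 0.09, PFDN4 -0.13). Of 16 endoplasmic reticulum chaperones 11 had negative estimates (median -0.07; PDIA3 0.18, DNAJB9 -0.29, SIL1 0.19). By arm, 9 of these 16 were positive in shZMAT2-1 (median 0.07) and 13 negative in shZMAT2-2 (median -0.12). All 16 had lower estimates in shZMAT2-2 than in shZMAT2-1. HSPB8, a small heat shock protein that works with BAG3, was at 7.44 ± 3.36 FPKM in the control, 12.8 ± 2.06 in shZMAT2-1 and 13.3 ± 2.52 in shZMAT2-2, a log2 fold change of 0.81 (SE 0.27, limma adjusted p = 0.41). It was 1 of 2 other small heat shock proteins tested.

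Most of these lists, without control replicate 2, had negative medians in the mean of both arms, where the median over all tested genes was -0.11. Estimates were positive for 1 of 4 regulators (median -0.12), 1 of 6 other HSP70 genes (-0.13), 4 of 17 J-domain genes (-0.12), 1 of 9 nucleotide exchange factors (-0.20) and 0 of 14 HSP90 co-chaperones (-0.21). They were positive for 3 of 10 mitochondrial chaperones (-0.12), 0 of 8 TRiC subunits (-0.24), 2 of 6 prefoldin subunits (-0.12) and 0 of 16 endoplasmic reticulum chaperones (-0.38), and for both small heat shock proteins (0.35). The signs of the list medians thus turned with 1 control library for every list but the endoplasmic reticulum and small heat shock proteins. In that limma fit 0 listed genes were called in the mean or in shZMAT2-1, and 1 in shZMAT2-2, DNAJB9, an endoplasmic reticulum J-domain protein, against 2.4% of tested genes.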

How the data were processed

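Poly(A)-selected RNA of 9 Huh7 libraries was sequenced with strand kept, per the labels' protocols. The authors deposited FPKM per gene. The submitters' processing notes list HISAT, featureCounts and DESeq2, with no version. The genome build and the handling of fragments shared between genes were not given in the sources used here. Gene positions are those of the deposited table, and 25045 of its 27421 genes overlap the position of the same ID in GENCODE 29. Depth was recovered from genes with 1 exon, whose FPKM were whole fragments within 0.1 for 100% of 745 to 864 values per library. The recovered fragments of HSPA1A and HSPA1B, 208 to 929 per library, give 95% Poisson intervals.

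A gene was tested if 3 or more libraries reached 1 FPKM, which kept 11245 genes and all 10 chaperone genes. limma 3.58.1 (R 4.3.3) took log2(FPKM + 1) of all 9 libraries, with trend and with the group as the only term. Low genes change less on this scale than in FPKM. Calls were two-sided at a Benjamini-Hochberg adjusted p under 0.05 over all tested genes. The code was checked on simulated data. Tables were made with Python 3.11.15, pandas 2.3.3 and Biopython 1.88. The named genes are ZMAT2, the 10 chaperone genes, up to 3 genes per list with the smallest p and at least 5 FPKM in a group, and the 5 genes most correlated with each of HSPA8, DNAJB1 and HSPD1. Deviations from the group means of same-numbered libraries correlated at 0.61, 0.78 and 0.69 between the control and shZMAT2-1. Control replicate 1 correlated more with shZMAT2-1 replicate 3 (0.68) than with its own number, so these values do not establish pairs by number. The labels do not say that numbers mark a shared batch. Deviations of same-numbered libraries correlated at -0.76, -0.22 and 0.61 between the control and shZMAT2-2. The highest value between groups was 0.81, for control replicate 2 and shZMAT2-2 replicate 1. The chaperone genes and lists were chosen with earlier results of these data known. Alternatives were pseudocount, filter, scaling, a mitochondrial covariate, a replicate block, and leaving out libraries.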

Additional observations from a re-analysis of the deposited data

How the results depend on the processing

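With all 9 libraries, 0 of the 10 chaperone genes were called in any comparison, also with another pseudocount or filter, median-of-ratios scaling, quantile normalization, TPM, or only the groups compared. Nuclear scaling called 1 in the mean of both arms (HSPA1B). The mitochondrial covariate called 3 in the mean, 2 in shZMAT2-1 and 1 in shZMAT2-2. With control replicate 2 and shZMAT2-1 replicate 2 both left out, limma called 2 in the mean, 1 in shZMAT2-1, 4 in shZMAT2-2 and 3 between the arms. In that fit shZMAT2-2 and a higher mitochondrial share cannot be told apart. The 4 libraries of low mitochondrial share, chosen after seeing the data, gave 8 in shZMAT2-1. Leaving out each library in turn gave 0 to 1 in the mean and in shZMAT2-2, and 0 to 0 otherwise, and the 1 was HSPA1B without control replicate 2. Same-numbered libraries deviated together in the control and shZMAT2-1, but control replicate 1 correlated more with shZMAT2-1 replicate 3 (0.68) than with its own number (0.61). The highest correlation between groups joined different numbers, control replicate 2 and shZMAT2-2 replicate 1 (0.81), with mitochondrial shares of 43.2% and 27.0%. In shZMAT2-2 the numbers did not pair. The replicate block changed no call of a chaperone gene. With only the control and shZMAT2-1 it called 0 of them, 249 of all genes, and ZMAT2 (limma adjusted p = 1.8e-05). Over all 9 libraries it called 0 chaperone genes, and 58, 13 and 52 of all genes in the mean, shZMAT2-1 and shZMAT2-2. Over all genes 61, 9, 66 and 0 (between arms) were called with the settings used throughout, and 25, 4 and 15 with a filter of 5 FPKM. Median-of-ratios scaling called 203, 77 and 195, quantile normalization 209, 79 and 195, TPM 1, 0 and 0, nuclear scaling 180, 55 and 161, and the covariate 1096, 419 and 1107. Only the groups compared gave 0 in each arm. Leaving out both libraries gave 461, 140, 3396 and 4761 between arms, the 4 libraries gave 4215, and leaving out each library gave 6 to 150, 0 to 33, 0 to 270 and 0 to 0. HSPA8, HSPA1A and HSPA1B had negative log2 fold changes against the control in every alternative run. Among the log2 fold changes given in the report, signs turned in the mean for HSP90AA1 with TPM (0.021), HSP90AB1 with quantile normalization (0.047) and TPM (0.063), and HSPD1 with median-of-ratios (-0.019) and nuclear scaling (-0.0042). With both libraries left out they turned for HSPD1 (-0.097) and HSPB1 (-0.022). HSPE1 in shZMAT2-1 turned with median-of-ratios (-0.0090), quantile normalization (-0.094) and nuclear scaling (-0.063), and HSPH1 in shZMAT2-2 with the covariate (0.047). Leaving out each library gave ranges across 0 in the mean for HSP90AB1 (-0.30 to 0.080), DNAJB1 (-0.63 to 0.031), HSPD1 (-0.15 to 0.24), HSPE1 (-0.30 to 0.067) and HSPB1 (-0.062 to 0.32). It did so too for HSPE1 in shZMAT2-1 (-0.087 to 0.65) and HSPH1 in shZMAT2-2 (-0.17 to 0.081). Arm estimates not given there also turned in shZMAT2-1 for HSP90AB1 (0.019) with median-of-ratios (-0.17), quantile normalization (-0.080) and nuclear scaling (-0.23), for HSPB1 (0.12) with the same scalings (-0.072, -0.17 and -0.13), for HSPD1 (0.20) with quantile normalization (-0.098) and nuclear scaling (-0.048), and with TPM for HSP90AA1 (-0.13 to 0.094) and DNAJB1 (-0.046 to 0.17). In shZMAT2-2 scaling turned HSPD1 (0.031 to -0.044, median-of-ratios) and HSP90AB1 (-0.11 to 0.17, quantile normalization). The covariate turned HSP90AB1 (-0.12) and HSPB1 (-0.025) in shZMAT2-1 and HSP90AA1 (0.0060) in shZMAT2-2. With both libraries left out, HSP90AB1 (-0.18) and HSPB1 (-0.042) turned in shZMAT2-1, and HSPD1 (-0.23) and HSPB1 (-0.0029) in shZMAT2-2. The 4 libraries gave the same in shZMAT2-1. Leaving out 1 library turned, in at least 1 fit, HSP90AB1, DNAJB1, HSPD1 and HSPB1 in shZMAT2-1, and HSP90AA1, HSP90AB1, HSPD1 and HSPB1 in shZMAT2-2. ZMAT2 in the mean lost its call with TPM (-0.98, limma adjusted p = 1.0) and in 5 of 9 fits that each left out 1 library, at log2 fold changes within -1.13 to -1.004, and in shZMAT2-1 in 8 of 9, with TPM, and without the other arm in the fit. Where calls changed, the cause was not tested.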
